A study of Mus musculus with 24 samples.

Results

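The 10 genes described here carry the growth hormone signal in the liver. They are the receptor gene Ghr and its kinase Jak2, the transcription factors Stat5a and Stat5b, the secreted products Igf1 and Igfals, the feedback inhibitors Socs2 and Cish, and the repressors Bcl6 and Cux2. They were chosen by name, with earlier results of these data known, so shares of them that passed are descriptions. Every probe whose gene name in the scanner output matched one of them exactly was taken. This gave 24 of the 56605 probes and 10 of the 37074 gene names of the array. Of the 30003 probes bright enough to be tested, 20 belonged to 9 of these genes. The other 4, all 3 Cux2 probes and 1 of the 4 Socs2 probes, were too dim in every group and are described at the end.

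Liver RNA from 24 male C57Bl6J mice was hybridised to 1-colour Agilent arrays, 1 mouse per array, to ask how an obesogenic diet changed hepatic expression and whether the fatty acids fed to earlier generations altered that response. The reference group (STD_Cont, 9 mice) and the HFoleic group (HFD_Cont, 8 mice) came from a control lineage whose ancestors had received a high-oleic sunflower oil, and the HFepa group (HFD_O3, 7 mice) came from a lineage given a fish oil that supplied eicosapentaenoic acid (EPA) over the generations. Reference mice ate a low-fat diet, and HFoleic and HFepa mice ate the same high-fat, high-sucrose diet. No gene was altered in any group, and all livers were taken during the fasting period. Low-fat mice of the EPA lineage were not analysed here, so in the comparison of HFepa with reference mice the diet and the lineage cannot be told apart. Both obesogenic groups were compared with the same 9 reference arrays, so those comparisons share their controls. All values below are log2 normalized signals unless a fold is given, and signals of different probes are not compared with each other. In bulk liver, fewer cells of a type and less RNA per cell cannot be told apart.

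Growth hormone binds a receptor on hepatocytes and activates the kinase JAK2 at its cytoplasmic side. JAK2 phosphorylates STAT5, which enters the nucleus and drives genes such as Igf1, the source of most circulating insulin-like growth factor 1, and Igfals, which encodes the acid-labile subunit that holds that factor in the blood. STAT5 also induces its own inhibitors, Socs2 and Cish. In male rodents the hormone arrives in pulses, and Bcl6, a repressor that competes with STAT5 for sites on DNA, is itself repressed when STAT5 is active. Steadier hormone in females gives the liver a different pattern of expression, which includes the repressor Cux2.

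STAT5 dimers bind the letters TTCNNNGAA, a pattern that reads the same on both strands. Promoters from the RefSeq table of the GRCm38.p6 assembly, each of 300 bases (250 before the start of transcription and 50 after it), were searched for it. The table held 16 promoters for 9 of the 10 genes, and Socs2 had no entry. The pattern was present in 5 of these 16 promoters, which belonged to 3 genes (Cish, Bcl6 and Igfals), and in 8.30% of all 32851 promoters. Promoters of a gene are not independent, and by gene this was 3 of 9, beside 9.55% of 27025 genes. The genes were chosen as part of this pathway, so these shares are descriptions. A match is a run of letters in this window and does not show binding. The stretches with a match are printed because Cish and Bcl6 varied against each other between mice. They run from 20 bases before the outermost match to 20 after it, cut short at the edge of the window or after 30 transcribed bases, with the matches in capitals.
Cish, chr9:107296639-107296688, plus strand: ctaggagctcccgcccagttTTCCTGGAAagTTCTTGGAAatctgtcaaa
Bcl6, chr16:23981343-23981471, minus strand: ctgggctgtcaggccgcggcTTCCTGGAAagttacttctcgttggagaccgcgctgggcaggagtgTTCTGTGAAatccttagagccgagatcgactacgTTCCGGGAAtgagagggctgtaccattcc
Bcl6, chr16:23988942-23988990, minus strand: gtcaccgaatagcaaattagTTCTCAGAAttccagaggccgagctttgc
Igfals, chr17:24877594-24877636, plus strand: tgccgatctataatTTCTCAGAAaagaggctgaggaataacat
Igfals, chr17:24878153-24878201, plus strand: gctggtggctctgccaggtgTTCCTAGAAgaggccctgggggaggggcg
In Cish the first match began at the start of transcription and the second 11 bases after it. In the Bcl6 promoter with 3 matches they began 168, 122 and 88 bases before the start. No match was found in the listed promoters of Ghr, Jak2, Stat5a, Stat5b, Igf1 or Cux2.

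The probes behind the main differences are named by their Agilent identifiers, with coordinates in the mm9 build as the files give them. The first 30 of the 60 bases of each are shown because probes of the same gene gave different answers.
Ghr A_51_P499854, chr15:3268107-3268166, minus strand: atctctttcatgcaggagagacagtgaaaa
Ghr A_52_P633550, chr15:3295320-3295379, minus strand: ccgacatatgcaaaagaacatcctgtttta
Stat5a A_55_P1990495, chr11:100746373-100746432, plus strand: ctctctgaaggaagcagagggatgcttttt
Stat5b A_55_P2031043, chr11:100642045-100642104, minus strand: tgaggcagccacaaaattgtgtattttatg
Socs2 A_51_P107362, chr10:94875066-94875125, minus strand: aggtgtgaagatgtagctaggtattttaaa
In the files Ghr A_51_P499854 is assigned to a RefSeq transcript, the other pair of Ghr probes to a second RefSeq transcript, and A_52_P633550 to an Ensembl transcript, at a position farther upstream in the gene.

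Between 50.9% and 60.8% of the probes of an array were well above background, no spot was saturated, and within a group the correlation between arrays ranged from 0.975 to 0.996. Hepatocyte markers, 7 of 7 tested, averaged 16.33 to 16.73 in all mice, so the tissue matched its label. In HFoleic against reference mice, the hepatocyte markers Tat (-0.63) and Cps1 (-0.89), the bile duct marker Sox9 (-0.65) and the stellate cell marker Lrat (0.56) passed the test, and no marker of macrophages, endothelium, lymphocytes, adipocytes or pancreas did. These were 2 of 7 hepatocyte, 1 of 3 bile duct and 1 of 7 stellate markers, beside 7.23% of all tested probes. Only 3 of the 7 stellate markers had a positive difference, and their median was -0.09. The hepatocyte median was -0.01, with 2 of 7 positive. Mean hepatocyte marker signal was 16.48 to 16.73 in reference, 16.33 to 16.54 in HFoleic and 16.34 to 16.63 in HFepa mice. Other cell types were less even among reference mice. Their stellate score reached 10.57, against at most 9.20 in HFoleic and 9.54 in HFepa mice. The bile duct score reached 8.07 (6.75 and 6.96) and the adipocyte score 7.77 (6.76 and 6.70). For macrophages, endothelium, lymphocytes and pancreas the highest score was not in a reference mouse. The part of cell makeup in the results below was not tested.

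Reference replicate 5 stood apart in the genes that growth hormone keeps sex-specific. Of 19 male-biased liver genes it had the lowest value of all 24 mice in 11, and of 13 tested female-biased genes the highest in 7. How often this mouse was the extreme over all tested probes is not given here. These counts therefore do not show that the trait was particular to sex-biased genes. Slco1a1, an organic anion transporter, read 5.99 in this mouse against 10.43 to 12.44 in the others, and Hsd3b5, a steroid dehydrogenase, read 5.28 against 9.42 to 14.33. Ntrk2, a receptor kinase on the female-biased list, read 10.82 against 6.95 to 8.32. Exceptions ran the other way: the female-biased Tox and Cyp2c40 were lowest in this mouse, and the male-biased Cyp2u1 and Mup20 highest. The mouse matched its male label: the Y-linked gene Eif2s3y read 10.56 before normalization, within the 10.25 to 10.80 of the others, and Xist, which marks a second X chromosome, read 4.93 within their 4.64 to 5.52. Several of the results below are also given without this mouse.

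**Figure D1:**
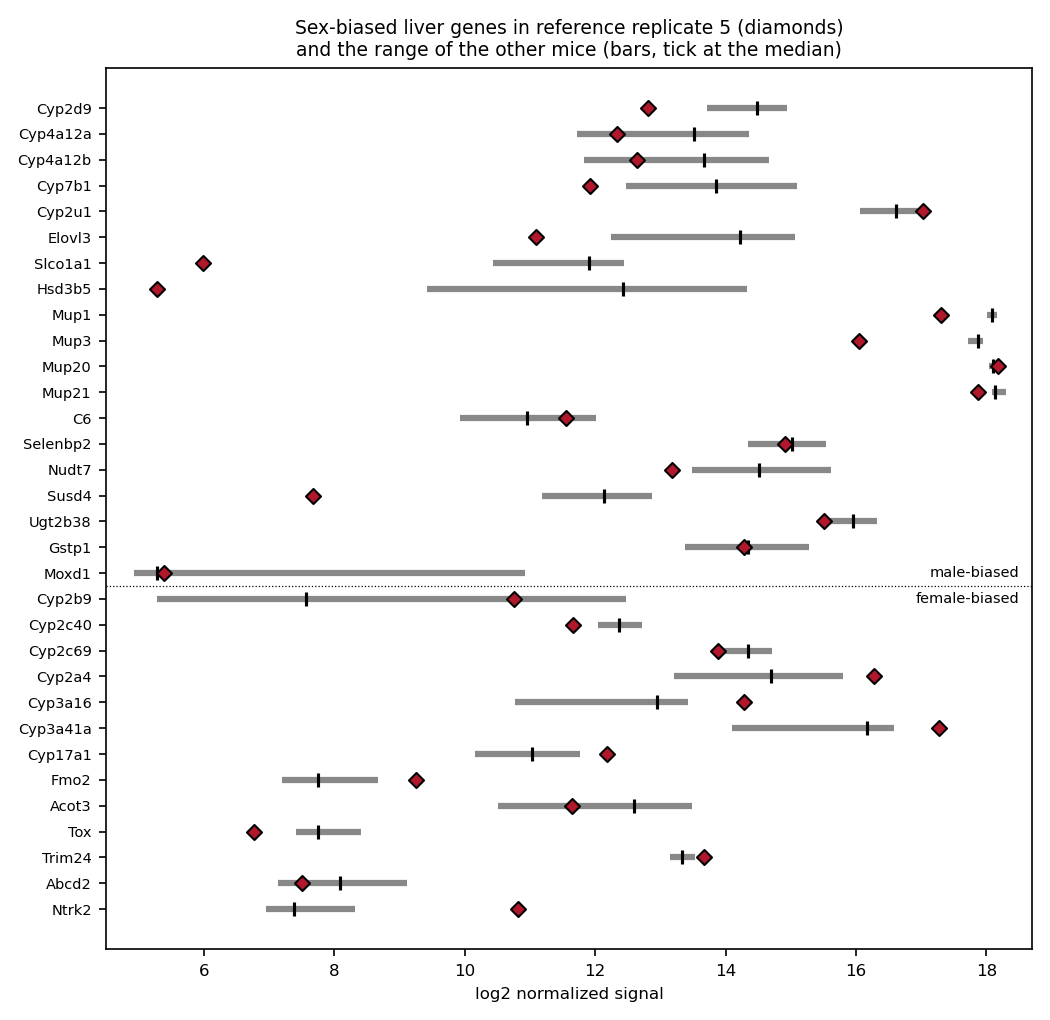
Log2 normalized signal (horizontal axis) of 19 male-biased genes (above the dotted line) and 13 female-biased genes (below it). Diamonds are reference replicate 5, bars span the lowest to the highest of the other 23 mice and ticks are their medians. The diamond lies left of the bar for 11 male-biased genes and right of it for 7 female-biased genes.

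In HFoleic against reference livers, 4 of 20 tested probes differed, all of them higher, from Ghr (2 of 4 probes), Stat5a (1 of 2) and Stat5b (1 of 2). Of all tested probes 7.23% differed in this comparison, and 4.05% of all tested probes were higher. None of the 20 probes differed between HFepa and reference livers, where 0.393% of all probes did, or between the HFepa and HFoleic groups, where 0% did. A probe was called different at a Benjamini-Hochberg adjusted p under 0.05 in limma, adjusted over all 30003 probes. At an unadjusted p under 0.05, 9, 2 and 7 of the 20 probes passed in these 3 comparisons, beside 21.1%, 13.5% and 9.70% of all probes. The median of the 20 log2 differences was 0.15, 0.14 and 0.02, beside medians of -0.00072, 0.0047 and 0.0048 over all probes.

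These calls were also fitted with a measure of the circadian clock. Of 8 tested clock genes of the Per phase 1 was called higher in HFoleic than in reference mice, and of 5 of the Bmal1 phase 0 were (limma; 6 and 1 at an unadjusted p under 0.05). A clock score, the mean log2 signal of the first set minus that of the second, averaged -0.04 ± 0.51 (SD) in reference, 0.68 ± 0.64 in HFoleic and 0.51 ± 0.94 in HFepa mice, with overlapping ranges. With this score as a covariate, 0 of the 20 probes were called in HFoleic against reference mice, and the 4 differences became 0.35, 0.63, 0.33 and 0.38 (adjusted p = 0.122, 0.115, 0.0787 and 0.0521, limma). The same covariate took the calls over all probes from 2170 to 1023. Whether the time of death differed between groups is not given in the sources used here. Without HFoleic replicate 8 only 2 of the 20 probes passed, and without reference replicate 4, 7 did.

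**Figure D2:**
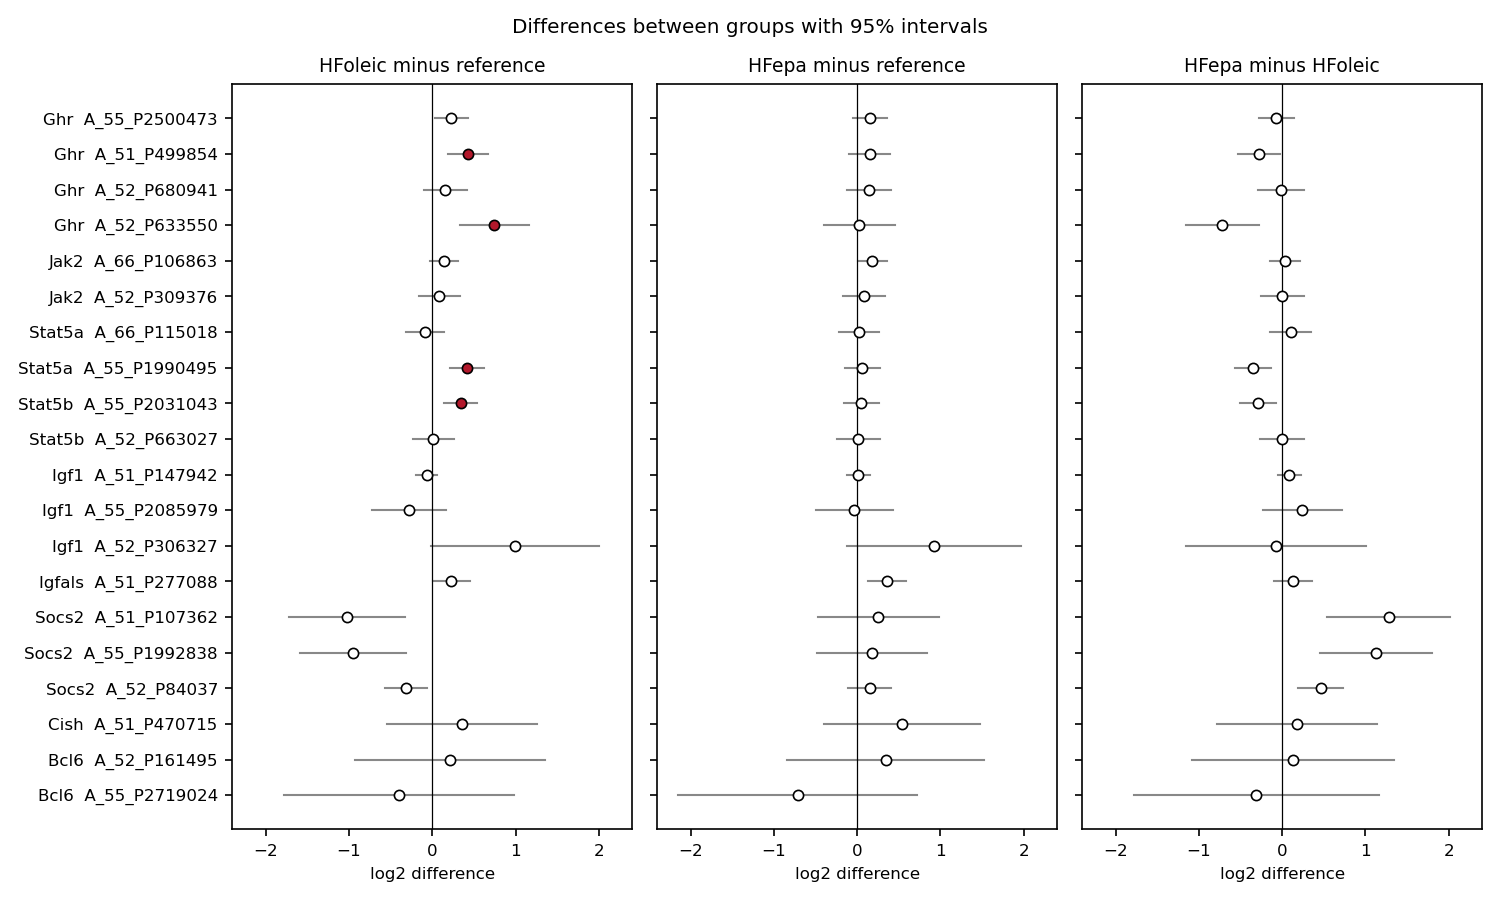
Log2 differences (horizontal axis) between groups for the 20 tested probes (rows), 1 panel per comparison. Points are limma estimates, lines their 95% intervals, and filled points passed an adjusted p under 0.05. Only the first panel holds filled points, 2 for Ghr and 1 each for Stat5a and Stat5b, and the Socs2 points lie left of 0 there and right of 0 in the last panel.

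Ghr, the growth hormone receptor, was higher in HFoleic than in reference mice with 2 of its 4 probes. With probe A_51_P499854 the reference mice lay between 12.41 and 13.25 (median 12.86), the HFoleic mice between 13.05 and 13.47 (median 13.35) and the HFepa mice between 12.54 and 13.30 (median 13.02). All 8 HFoleic mice exceeded the reference mean and 6 exceeded every reference mouse. The difference was 0.43 ± 0.11 (SE), or 1.35-fold (adjusted p = 0.0212, limma), and 0.37 without reference replicate 5 (adjusted p = 0.0376, limma). With probe A_52_P633550 the reference mice lay between 9.96 and 10.97 (median 10.41), the HFoleic mice between 10.41 and 11.85 (median 11.05) and the HFepa mice between 9.95 and 11.28 (median 10.45). Here 7 of 8 HFoleic mice exceeded the reference mean. The difference was 0.74 ± 0.20 (SE), or 1.67-fold (adjusted p = 0.0235, limma). The other 2 probes of Ghr differed by 0.23 (A_55_P2500473, adjusted p = 0.159, limma) and 0.15 (A_52_P680941, adjusted p = 0.532), and without reference replicate 5 these became 0.14 and 0.04. The 4 Ghr probes, which are not all assigned to the same transcript, thus gave estimates from 0.15 to 0.74. Whether they differed from one another was not tested, and the 2 that passed are not read as the gene as a whole. The call of A_52_P633550 was lost without HFoleic replicate 2, 4 or 8 (adjusted p = 0.0537, 0.0522 and 0.0580, limma), and that of A_51_P499854 with no single mouse left out.

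Between the lineages on the obesogenic diet, Ghr A_52_P633550 differed by -0.72 ± 0.21 (SE, HFepa minus HFoleic) and A_51_P499854 by -0.28 ± 0.12. Neither passed over all probes (adjusted p = 0.2503 and 0.449, limma). Within the 3 slides the A_52_P633550 difference between the lineages was -0.98, -1.05 and 0.02, and was near 0 in the third. Its difference between HFoleic and reference mice was 1.05, 0.93 and 0.26 within the slides, and that of A_51_P499854 was 0.57, 0.39 and 0.32.

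Jak2, the kinase bound to the receptor, did not pass with either probe. With A_66_P106863 the group means were 7.74 ± 0.14 (SD), 7.88 ± 0.11 and 7.92 ± 0.25 in reference, HFoleic and HFepa mice. The 95% intervals of the differences from reference ran from -0.02 to 0.31 for HFoleic and from 0.01 to 0.36 for HFepa. The second probe, A_52_P309376, was well above background on 17 of 24 arrays and had differences of 0.08 in both comparisons with reference. That of HFepa mice turned to -0.07 without HFepa replicate 4, which read 6.86 where the next highest HFepa mouse read 5.92.

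Stat5a and Stat5b, the pair of near-identical factors that JAK2 activates, each had 1 higher probe and 1 that did not pass. With Stat5a A_55_P1990495 the reference mice lay between 9.29 and 9.98 (median 9.57), the HFoleic mice between 9.64 and 10.21 (median 9.98) and the HFepa mice between 9.33 and 9.9997 (median 9.55). Every HFoleic mouse exceeded the reference mean and 4 of 8 exceeded every reference mouse. The difference was 0.41 ± 0.10 (SE), or 1.33-fold (adjusted p = 0.0114, limma), and 0.47, 0.37 and 0.35 within the 3 slides. The second Stat5a probe, A_66_P115018, differed by -0.08 (adjusted p = 0.737), and across the 24 mice the deviations of the 2 probes from their group means correlated at -0.14. The gene is therefore reported by probe and not as a whole.

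With Stat5b A_55_P2031043 the reference mice lay between 11.40 and 11.88 (median 11.59), the HFoleic mice between 11.69 and 12.42 (median 11.93) and the HFepa mice between 11.41 and 11.92 (median 11.63). All 8 HFoleic mice lay above the reference mean, and 5 above every reference mouse. The difference was 0.34 ± 0.10 (SE), or 1.27-fold (adjusted p = 0.0315, limma). It was the least stable of the 4 calls and missed the threshold when any of 7 mice was left out (reference replicate 1, 3, 6 or 7, or HFoleic replicate 1, 3 or 8, adjusted p up to 0.0710, limma). Within the 3 slides it was 0.53, 0.33 and 0.14. The second probe, A_52_P663027, is assigned to a cDNA clone and differed by 0.01 (adjusted p = 0.966). HFepa mice differed from HFoleic mice by -0.35 ± 0.11 (SE) for the Stat5a probe and by -0.29 ± 0.10 for the Stat5b probe, which did not pass (adjusted p = 0.256 and 0.339, limma).

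**Figure D3:**
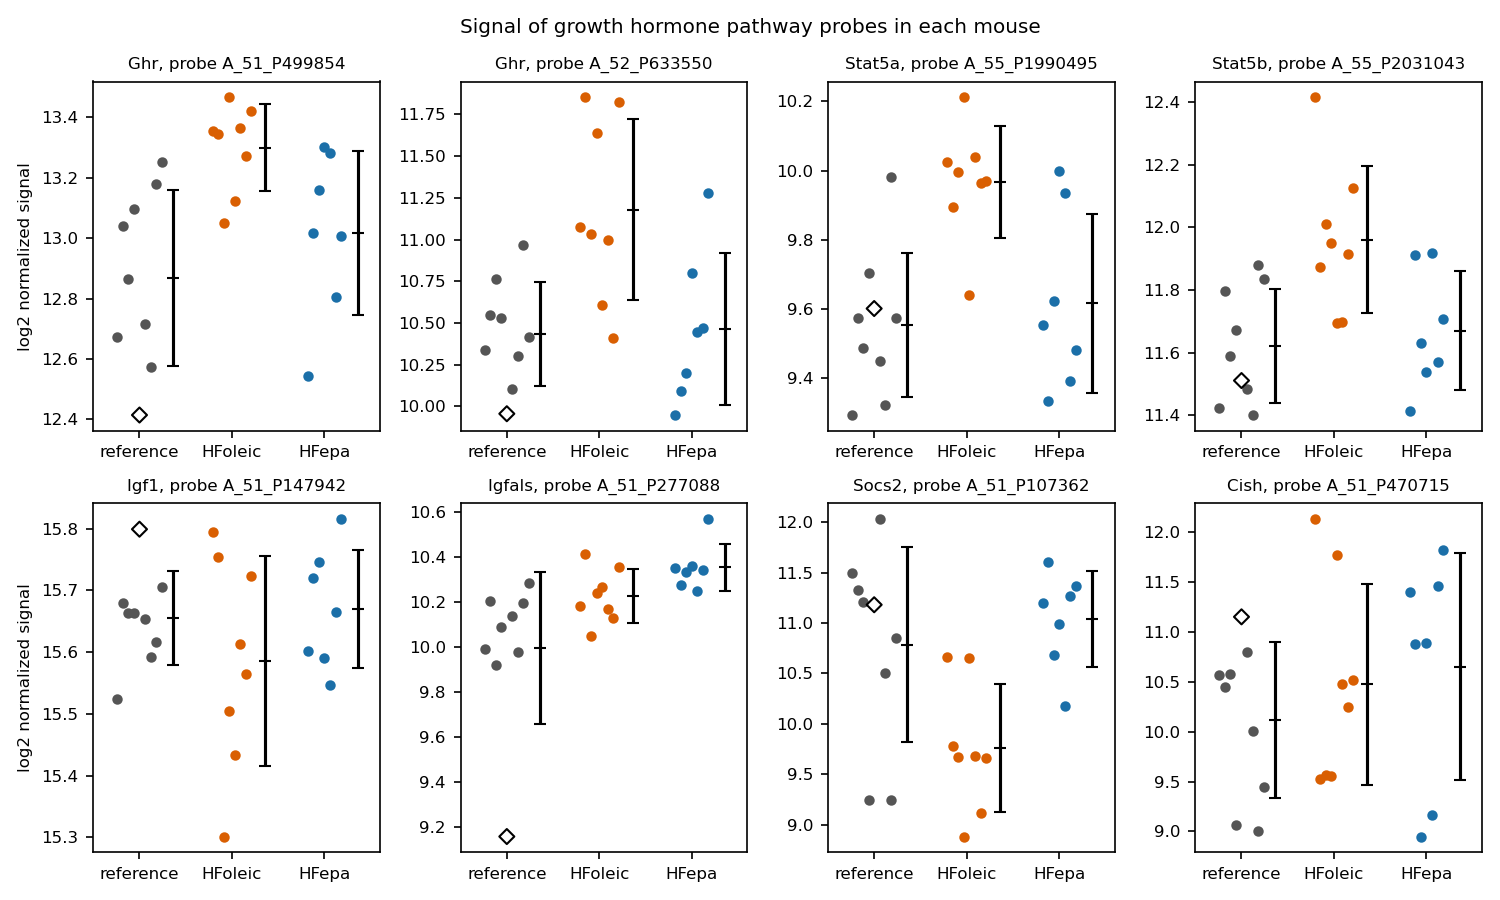
Log2 normalized signal (vertical axes, a different range in each panel) of 8 probes in every mouse, by group. Points are mice, the open diamond is reference replicate 5, and crossbars give the mean and SD. The HFoleic mean is the highest of the 3 in the Ghr, Stat5a and Stat5b panels and the lowest for Socs2. The diamond is the lowest reference mouse for both Ghr probes and Igfals, and the highest for Igf1 and Cish.

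Igf1, the main secreted product of the pathway, did not pass with any of its 3 probes. With A_51_P147942 the group means were 15.66 ± 0.08 (SD), 15.59 ± 0.17 and 15.67 ± 0.10 in reference, HFoleic and HFepa mice. The highest and lowest mouse of a group differed by 0.27, 0.49 and 0.27, and the interval of the difference between HFoleic and reference mice ran from -0.20 to 0.06. Probe A_55_P2085979, assigned to another RefSeq transcript, differed by -0.28 ± 0.22 (SE). Probe A_52_P306327, assigned to a cDNA clone, differed by 0.995 in HFoleic and 0.92 in HFepa mice, with intervals from -0.02 to 2.01 and from -0.13 to 1.97. None of these passed the test (adjusted p = 0.245 to 0.972 against reference, limma).

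Igfals, which encodes the acid-labile subunit, read 9.16 to 10.28 in reference (median 10.09), 10.05 to 10.41 in HFoleic (median 10.21) and 10.25 to 10.57 in HFepa mice (median 10.34). Its difference between HFepa and reference mice was 0.36 ± 0.11 (SE), with an unadjusted p of 0.00323 and an adjusted p of 0.130 (limma). Without reference replicate 5, the lowest mouse, the difference was 0.25 (adjusted p = 0.0839, limma). The difference between HFoleic and reference mice was 0.23 (adjusted p = 0.207) and 0.13 without that mouse.

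Socs2, the STAT5-induced inhibitor that restrains growth hormone signalling, had the largest differences of the 9 tested genes between the lineages, though none passed. With A_51_P107362 the reference mice lay between 9.24 and 12.03 (median 11.18), the HFoleic mice between 8.88 and 10.66 (median 9.68) and the HFepa mice between 10.17 and 11.60 (median 11.20). All 8 HFoleic mice lay below the reference mean, and all 7 HFepa mice lay above the HFoleic mean, 6 of them above every HFoleic mouse. HFoleic minus reference was -1.02 ± 0.34 (SE), or 0.492-fold (adjusted p = 0.0664, limma), and HFepa minus HFoleic was 1.28 ± 0.36, or 2.43-fold (unadjusted p = 0.00161, adjusted p = 0.229). A second probe of the same transcript, A_55_P1992838, gave -0.95 and 1.13 and correlated with the first at 0.98 across mice.

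The Socs2 difference from reference kept its direction with any 1 mouse left out (-1.22 to -0.87), and single mice moved its adjusted p to either side of the threshold. Reference replicates 4 and 8 both read 9.24, while the other 7 reference mice read 10.50 to 12.03. Without replicate 4 the difference was -1.22 (adjusted p = 0.0193, limma) and without replicate 8 also -1.22 (adjusted p = 0.0134), and it passed too without HFoleic replicate 1 or 5 (-1.15, adjusted p = 0.0483 and 0.0450). It was smallest without reference replicate 6 (-0.87, adjusted p = 0.121), and the largest adjusted p, 0.132, came without HFoleic replicate 4. With the slide as a block, A_55_P1992838 passed (-0.91, adjusted p = 0.0414). The third probe, A_52_P84037, was detected on all 16 reference and HFepa arrays but on 4 of 8 HFoleic arrays. Its estimates of -0.32 and 0.46 are therefore set partly by the background in HFoleic mice, and ran from -0.66 to -0.23 and from 0.31 to 0.91 under other processing.

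Cish, the other inhibitor, did not pass in any comparison. It read 9.00 to 11.15 in reference (median 10.44), 9.52 to 12.13 in HFoleic (median 10.36) and 8.95 to 11.82 in HFepa mice (median 10.89). Its difference between HFoleic and reference mice was 0.36 ± 0.44 (SE), with an interval from -0.55 to 1.26, and between the lineages it was 0.18 ± 0.47. The first was 0.12 without HFoleic replicate 1, and the second was -0.02 without HFepa replicate 7 and 0.46 without HFepa replicate 3. Bcl6 read 9.23 to 13.09 in reference (median 10.49), 10.22 to 12.11 in HFoleic (median 11.45) and 9.98 to 13.33 in HFepa mice (median 11.004) with A_52_P161495. The reference mice thus spanned 14.5-fold on the linear scale, beside 1.21-fold for Igf1 A_51_P147942 in the same mice. Neither Bcl6 probe differed between groups (0.21 and -0.40 for HFoleic minus reference, adjusted p = 0.878 and 0.800, limma).

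Within groups, Socs2 and Cish rose together from mouse to mouse while Bcl6 fell. Relations were computed on deviations from group means over 24 mice, using the brightest tested probe of each gene. For Ghr this was A_55_P2500473 and for Stat5a A_66_P115018, neither of which was called above. The Ghr probe is assigned to another transcript than the called A_51_P499854. Two-sided permutation p-values came from 100000 shuffles within groups, with adjustment over all 36 pairs of the 9 tested genes. Socs2 rose with Cish (Pearson's r = 0.76, Spearman's rho = 0.82, permutation adjusted p = 0.00036 for both). Bcl6 fell as Cish rose (r = -0.81, rho = -0.80, permutation adjusted p = 0.00036 for both) and as Socs2 rose (r = -0.74, rho = -0.74, permutation adjusted p = 0.0018 for both). Leaving out the 2 mice farthest from the median of the first gene gave r = 0.75 for Socs2 with Cish, -0.76 for Cish with Bcl6 and -0.64 for Socs2 with Bcl6. Without reference replicate 5 the values were 0.76, -0.81 and -0.74.

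The signs were the same in each group and on each slide. In reference, HFoleic and HFepa mice, r was 0.87, 0.82 and 0.82 for Socs2 with Cish, -0.90, -0.67 and -0.96 for Cish with Bcl6, and -0.82, -0.50 and -0.82 for Socs2 with Bcl6. Within the 3 slides of 8 arrays each, r ran from 0.83 to 0.93, from -0.88 to -0.81 and from -0.84 to -0.67 for these pairs. The 3 reference mice with the highest Bcl6, replicates 4, 8 and 9 at 12.87, 13.05 and 13.09, had the 3 lowest Cish values of their group, 9.07, 9.00 and 9.44. In HFepa mice the 2 with the highest Bcl6, replicates 3 and 5 at 13.33 and 12.81, had the lowest Cish, 8.95 and 9.16. Reference replicates 4 and 8 are also the reference mice with the lowest Socs2.

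**Figure D4:**
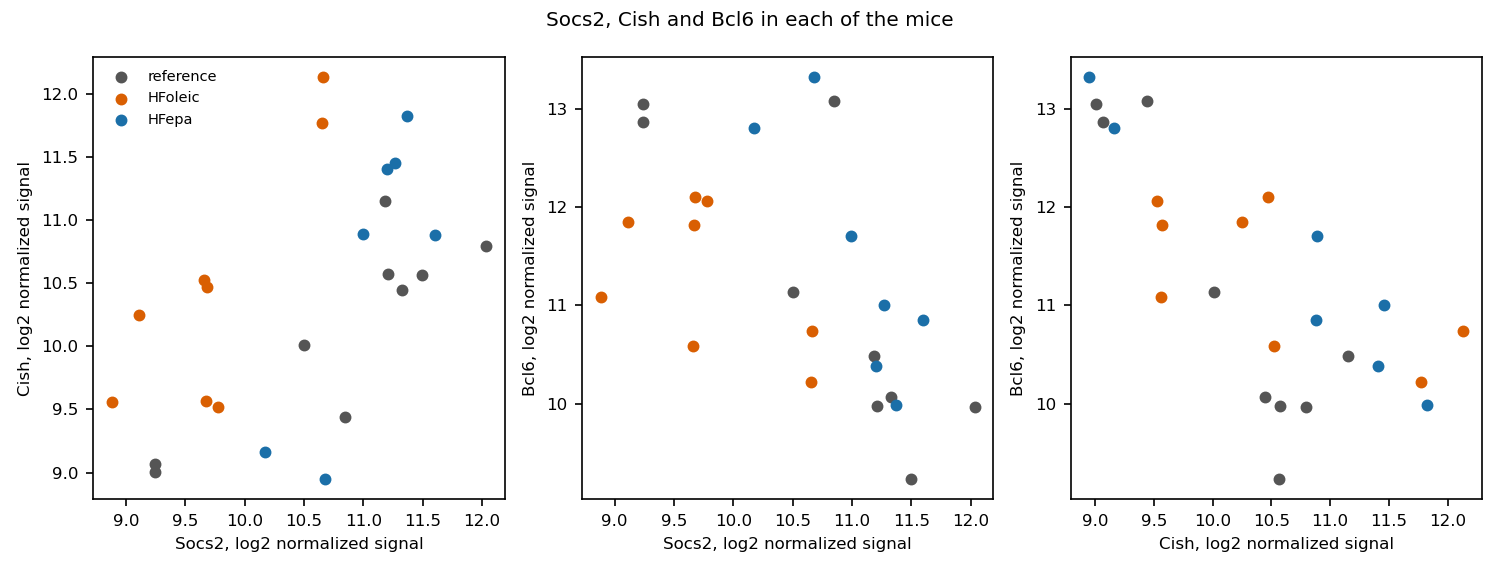
Log2 normalized signals of Socs2, Cish and Bcl6 plotted against each other, 1 point per mouse, coloured by group. Points rise from lower left to upper right for Socs2 with Cish (r = 0.76 of deviations from group means) and fall for Bcl6 with Socs2 (-0.74) and with Cish (-0.81).

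Ghr and Igfals also passed in Pearson's r (0.85, permutation adjusted p = 0.0079) but not in rank (rho = 0.49, permutation adjusted p = 0.132). Without the 2 farthest mice r was 0.54, and without reference replicate 5 alone it was 0.53 and no longer passed (permutation adjusted p = 0.0915). In reference, HFoleic and HFepa mice r was 0.93, 0.78 and -0.19, and within the 3 slides, the first of which held that mouse, it was 0.95, 0.47 and 0.62. Ghr and Stat5b passed in rank over all 24 mice (rho = 0.64, permutation adjusted p = 0.0113) but not in Pearson's r (0.45, permutation adjusted p = 0.0863), and in both without reference replicate 5 (r = 0.59, permutation adjusted p = 0.0384, and rho = 0.64, permutation adjusted p = 0.0199). Without that mouse Ghr with Igf1 and Igf1 with Igfals passed in Pearson's r (both 0.54, permutation adjusted p = 0.0359 and 0.0491) but not in rank (permutation adjusted p = 0.1001 and 0.168). Of 27 relations of the 9 genes with a male-biased score, a female-biased score and the clock score, 0 passed, and 4 had an unadjusted permutation p under 0.05. The smallest adjusted permutation p, 0.0904, belonged to Igfals (r = 0.80) and Ghr (r = 0.76) with the male-biased score, and r fell to 0.39 and 0.47 without the 2 farthest mice. Without reference replicate 5 it fell to 0.34 and 0.33 (permutation adjusted p = 0.779 for both).

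The genes of the whole array whose deviations were most like those of each member are given with their r over the 24 mice, as a description with no p. Foxa2 (0.88), Arid5b (0.88) and Rgs3 (0.84) were most like Cish. Prss33 (0.79), Gtf3c2 (0.77) and Pias1 (0.77) were most like Socs2, and Abhd14a (0.77), Cxcl12 (0.76) and Cep250 (0.75) most like Bcl6. Chchd1 (0.90), Cers2 (0.83) and Cks1b (0.82) were most like Stat5b, Ermap (0.80), Tubb3 (0.80) and Otof (0.76) most like Stat5a, and Cobll1 (0.77), Dlat (0.75) and Zfp429 (0.75) most like Jak2. Cyp2c70 (0.80), Nostrin (0.80) and Agxt (0.78) were most like Igf1. For Ghr these were Ank (0.92), Sugct (0.91) and Cyp2c50 (0.90), which became 0.78, 0.73 and 0.83 without reference replicate 5. For Igfals they were Sult2a8 (0.91), Npr2 (0.90) and Cyp2c54 (0.89), which became 0.67, 0.57 and 0.45.

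Cux2, the repressor found in female liver, stayed near background. Its 3 probes were well above background on 9, 6 and 5 of 24 arrays and were not tested. Before normalization, reference replicate 5 had the highest value of all mice with each of them, 6.77, 7.52 and 7.20 (A_66_P122699, A_55_P2720570 and A_51_P180463). The other reference mice read 4.95 to 6.31 with the second of these probes, the HFoleic mice 5.09 to 5.79 and the HFepa mice 5 to 5.95. The array of reference replicate 5 also had the highest median signal before normalization, 89 against 59.5 to 84 on the others. The Cux2 values are not corrected for this. The untested Socs2 probe, A_55_P2072586, was well above background on 6 arrays.

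Genes around the members were described from 5 lists of 74 genes, of which 67 were tested. The lists too were chosen with earlier results of these data known. In HFoleic against reference livers 3 were higher (4.48%, beside 4.05% of all probes) and 10 lower (14.9%, beside 3.19%). The lower count holds Moxd1, which met the detection filter only through the reference group, where it was high. It also holds Cyp4a12a and Cyp4a12b, whose probes may share transcripts. The share of lower genes is therefore not a count of independent results. In the other 2 comparisons 0 were called (limma), and 11 and 7 had an unadjusted p under 0.05 (16.4% and 10.4%, beside 13.5% and 9.70% of all probes). The count of 13 was 6, 7 and 7 without reference replicates 1, 6 and 7, was 8, 8 and 5 without HFoleic replicates 1, 7 and 8, and ran up to 16. It was 12 without reference replicate 5. In HFepa against reference livers 3 genes passed without reference replicate 8.

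Partners of the growth hormone signal (phosphatases, adaptors, related kinases and factors) came to 18 tested genes. In HFoleic mice 12 of the 18 had a positive difference (median 0.09), beside 49.8% of all probes, and 1 was called higher. This was Nr3c1, the glucocorticoid receptor, which cooperates with STAT5 on DNA, at 0.36 ± 0.07 (SE, adjusted p = 0.0035, limma). Every HFoleic mouse (12.22 to 12.51) read higher than 8 of the 9 reference mice (11.70 to 12.24 for all 9). Of 10 genes that bind IGF1 or receive its signal 2 were lower. Igfbp1, a binding protein that insulin represses, read 14.13 to 16.55 in reference, 13.53 to 15.38 in HFoleic and 14.41 to 15.30 in HFepa mice, a difference of -1.34 ± 0.26 (SE) for HFoleic, or 0.395-fold (adjusted p = 0.0034, limma). Igfbp2, a related binding protein, differed by -0.62 ± 0.17 (adjusted p = 0.0229). The ligand gene Igf1 itself did not pass, as given above.

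Of 19 male-biased genes 4 were lower and 0 higher in HFoleic mice, 1 of them against a signal mostly at background. Cyp4a12a and Cyp4a12b, fatty acid hydroxylases so alike that their probes may share transcripts, differed by -1.04 (adjusted p = 0.0349, limma) and -0.98 (0.0491). Cyp2u1, another P450, differed by -0.43 (0.0099). The fourth was Moxd1 (adjusted p = 0.0219), which was well above background on 7 of 9 reference, 1 of 8 HFoleic and 0 of 7 HFepa arrays, so no size is given for its difference. It read 5.08 to 10.93 in reference and 4.92 to 5.96 in HFoleic mice. Of 13 female-biased genes 1 was higher and 3 lower. Cyp2b9, a P450 of the female pattern, read 5.52 to 10.75 in reference and 7.27 to 11.69 in HFoleic mice (2.99 ± 0.84, adjusted p = 0.0288, limma), and the highest reference value was that of replicate 5. It was well above background on 7 of 9 reference and 8 of 8 HFoleic arrays, so the size of its difference may be set partly by the background. Fmo2 (-0.83), Cyp3a16 (-0.90) and Cyp17a1 (-0.61), the first a flavin monooxygenase and the others P450 enzymes, were lower (adjusted p = 0.0043, 0.0359 and 0.0398). Reference replicate 5 had the highest value of all 24 mice for each of them. Without it Fmo2 still passed (-0.71, adjusted p = 0.0045, limma), while Cyp3a16 (-0.77, adjusted p = 0.0632) and Cyp17a1 (-0.51, adjusted p = 0.0668) did not, and Cyp2b9 differed by 3.49 (adjusted p = 0.0075). The median differences were -0.05 over the male-biased and -0.08 over the female-biased genes.

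Of 7 lipid genes known to rise in livers that lack growth hormone or STAT5 signalling, 1 was higher and 1 lower in HFoleic mice. The median difference of the 7 was 0.43, beside -0.00072 over all probes. A positive difference was seen in 5 of the 7, and 5 of the 7 had an unadjusted p under 0.05 (limma), beside 21.1% of all probes. These were not the same 5 genes, since Cidec passed and was lower. Cidea, one of the positive genes, averaged 9.20 ± 2.08 (SD) in reference and 9.22 ± 1.93 in HFoleic mice. The median was -0.05 in HFepa against reference mice, where 3 of the 7 were positive and 2 had an unadjusted p under 0.05. Between the lineages it was -0.30 (HFepa minus HFoleic), and 0 of the 7 had an unadjusted p under 0.05. Vldlr, a lipoprotein receptor, read 6.88 to 8.59 in reference and 7.56 to 8.89 in HFoleic mice (0.83 ± 0.24, adjusted p = 0.0338, limma). Cidec, a lipid droplet protein, read 11.51 to 14.05 in reference and 9.45 to 12.62 in HFoleic mice (-1.72 ± 0.47, adjusted p = 0.0243).

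**Figure D5:**
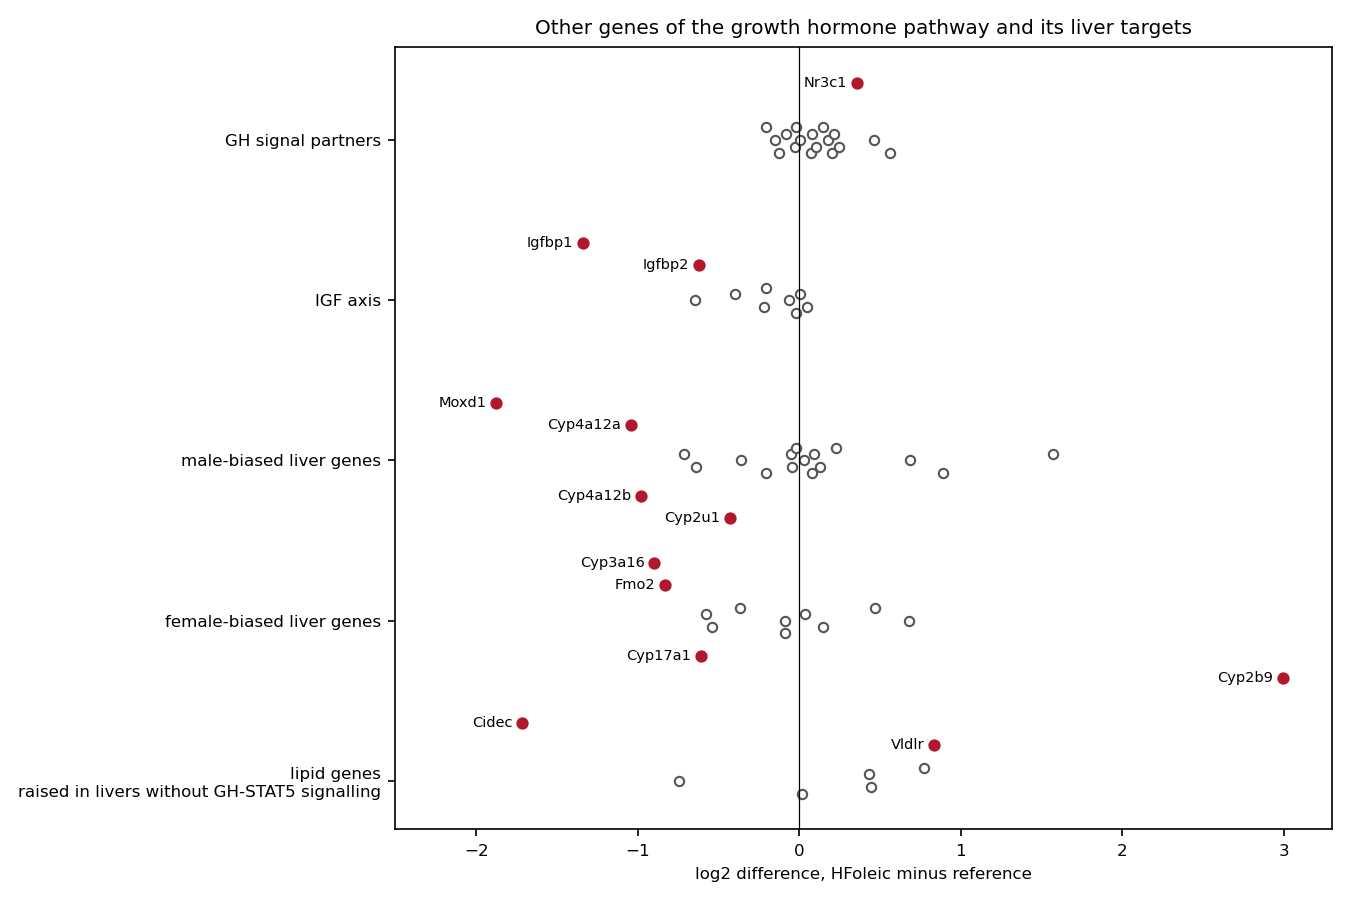
Log2 difference between HFoleic and reference livers (horizontal axis) for the 67 tested genes of 5 lists (rows), 1 point per gene. Filled, named points passed an adjusted p under 0.05, 3 of them right of 0 and 10 left of it, of which Moxd1 was mostly at background in HFoleic mice. Vertical position within a row has no meaning.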

How the data were processed

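Per the labels, RNA of 24 livers was labelled in 1 colour on Agilent arrays, and the authors extracted spot intensities with Feature Extraction 10.10.1.1. They deposited scanner intensity files and a table of log2 values, quantile normalized, which held 22 of the 24 probes described. From the scanner files, log2 median signals were averaged over the spots of a probe, a probe was kept if, in any group, at least 75% of arrays detected it over background (30003 kept), and values were quantile normalized. limma 3.58.1 in R 4.3.3 fitted the 3 groups together, with Benjamini-Hochberg adjustment over all probes. The number of arrays limits the precision. Correlations used 1 probe per gene, the brightest, and permutations in Python 3.11.15. The fit and the correlations were tested on simulated data. The text names every probe of the members, list genes that passed, and the 3 genes most like each member. Members and lists were chosen with earlier results of these data known. Alternatives covered the deposited table, signal, background, filter, scaling, slide, replicate number, clock score, test and single mice.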

Additional observations from a re-analysis of the deposited data

Results flagged for a closer look

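In 6 of 60 sets of 1 probe and 1 group, a mouse lay farther from the rest than a gap test at its 95% level allows. Chance alone gives about 1 in 20 where sets are independent. These sets are not, since the probes read the same mice and some read the same gene. The Ghr probes flagged below correlated at 0.96. An excess over chance therefore cannot be read from the count. For 3 of the 6 flagged sets the mouse was reference replicate 5. It was the lowest of its group with Ghr A_55_P2500473 at 12.9656 (next 13.5121), with Ghr A_52_P680941 at 11.3437 (next 12.0183) and with Igfals A_51_P277088 at 9.1559 (next 9.9191). It was also the mouse with the highest Cux2 signals, which were near background and not normalized, and with the lowest values of 11 of 19 male-biased genes. Other members ran differently: among reference mice it had the highest Igf1 with A_51_P147942 (15.80) and the highest Cish (11.15). The other 3 were Jak2 A_52_P309376 in HFepa replicate 4 at 6.8650 (next highest 5.9217), Igfals A_51_P277088 in HFepa replicate 7 at 10.5675 (next highest 10.3573), and Socs2 A_52_P84037 in HFoleic replicate 1 at 6.3452 (next highest 5.9598). HFepa replicate 4 had the lowest value of all mice in 3 of 19 male-biased genes and the highest in 3 of 13 female-biased genes.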

How the results depend on the processing

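Of 20 probes, 4 were called for HFoleic against reference, and 0 with the clock score as a covariate, 2 with the methods' t-test, and 2 to 7 when 1 mouse was left out. The other settings gave 3 to 5. In the other 2 comparisons 0 were called under every setting and with any 1 mouse left out. The replicate numbers did not pair the mice: of 22 same-numbered pairs 5 correlated above 0.1 (r from -0.30 to 0.35), and with the replicate number as a block 5 probes were called, the added probe being Socs2 A_55_P1992838 (-0.93, adjusted p = 0.0407, limma). Of 67 list genes, 13 were called for HFoleic against reference, 6 with no filter on dim probes, where 56605 probes shared the adjustment, and 5 to 16 with 1 mouse left out; for HFepa against reference 0 to 3 were called with 1 mouse left out. Pairs of members that passed were 4, and 4 to 6 under other settings, with 6 when reference replicate 5 was left out, a setting chosen after seeing the data. Relations with list scores that passed were 0, and 2 each with the processed signal and with 75th percentile scaling. Where no cause is named, the cause was not tested. With 7 to 9 mice per group, the intervals of single probes limit what these data can show, most of all for Cish and Bcl6.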
